A study of Rattus norvegicus with 129 samples.

Results

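The Cyp4a genes of rat liver, Cyp4a1, Cyp4a2, Cyp4a3 and Cyp4a8, were read from every probe set whose platform annotation names one of them. These 4 are among 15062 genes named on 3 array types, and 16 of the 55821 probe sets read them. On the array used for phenobarbital, PCN, D3T and 3 weeks of PFOS there were 7 of 8740 tested probe sets. Of those, 3 name Cyp4a1 (M57718mRNA_s_at, rc_AA924267_s_at and X07259cds_s_at), 2 name Cyp4a8 (M37828_at and rc_AA893011_at) and 1 names Cyp4a3 alone (rc_AA924591_at). The remaining one, M33936_s_at, names Cyp4a3 and Cyp4a2 together and is called the shared probe set. The array used for male rats on PFOA or PFOS had 5 of 31042, and the array used for Wy-14643 had 4 of 15866. Both of these have 1 probe set for Cyp4a1, 1 for Cyp4a3 and a brighter and a dimmer one for Cyp4a8, and the PFOA and PFOS array alone adds 1 that names Cyp4a3 and Cyp4a2. No probe set names Cyp4a2 alone, so that gene is named only by shared probe sets. The Cyp4a3 probe set of the 2 later arrays was built on the same GenBank record that the annotation of the first array gives to Cyp4a3 and Cyp4a2 together. It is called Cyp4a3 below after its annotation, and whether it also reads Cyp4a2 was not tested.

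CYP4A enzymes are cytochrome P450s of the endoplasmic reticulum that put a hydroxyl group on the terminal carbon of a fatty acid. The product is oxidised further by alcohol and aldehyde dehydrogenases to a dicarboxylic acid, which peroxisomes and mitochondria shorten by β-oxidation. In rodent liver the genes are classic targets of PPARα, a nuclear receptor that fatty acids and fibrate-type drugs activate, and Cyp4a1 is often used as its marker. Cyp4a2, Cyp4a3 and Cyp4a8 are also known from kidney, where CYP4A enzymes turn arachidonic acid into a vasoactive product.

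The series sets perfluoroalkyl acids beside activators of xenobiotic receptors, and 128 of its 129 arrays, each of 1 rat liver, were used. Male and female Sprague-Dawley rats received phenobarbital (an activator of the receptor CAR), PCN (an activator of rat PXR) or a methylcellulose and Tween vehicle by gavage at 100 mg/kg. A single dose was followed by 6 h or 24 h, and a course of 5 daily doses by 24 h, with 5 rats a group and 4 used in the male vehicle group at 6 h. Phenobarbital and PCN share their vehicle rats at each time and sex. D3T (3H-1,2-dithiole-3-thione, an activator of the transcription factor NRF2) was fed at 600 mg/kg diet against control diet to Sprague-Dawley rats labelled female and 4 weeks old, with 4 a group. PFOS, a perfluorinated sulfonate, was gavaged at 5 mg/kg daily for 3 weeks to female Sprague-Dawley rats 60 days old, against a Tween-20 vehicle, with 2 a group. In a further study, male Sprague-Dawley rats 10 weeks old received the ammonium salt of PFOA, a perfluorinated carboxylate, at 20 mg/kg a day, the potassium salt of PFOS at 10 mg/kg a day, or Alkamuls EL-620 as vehicle. That study had 3 rats a group, and PFOA and PFOS share the vehicle rats. Wy-14643, a synthetic PPARα agonist, was given to male Wistar Hanover rats at 60 mg/kg a day for 1, 3 or 7 days, against carboxymethyl cellulose vehicle of the same time, with 3 a group. For 1 Wy-14643 rat, 06, no dose is written in its label. Ages in the phenobarbital and PCN and the Wy-14643 studies, and durations in the D3T and the male PFOA and PFOS studies, are not in the labels used here, nor is any batch.

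Levels below are log2(intensity + 16) after scaling, on which an intensity at or below 0 has the floor value 4.00. Each study was scaled by itself, so levels of different studies are not on one scale. A probe set passed where its adjusted p (limma, with Benjamini-Hochberg correction across the whole array) was under 0.05, and errors of changes are standard errors. The median change over all probe sets was 0 in each of the 33 comparisons. The 7 hepatocyte markers averaged between 11.61 and 13.03 in every group, and those of kidney tubule between 4.63 and 5.72. Within a study the summed intensity of the hepatocyte markers still fell apart between some groups, as given beside the results. The array of the male vehicle rat 1003 correlated at 0.626 with its group against at least 0.957 for all others of its study, and 42.6% of its probe sets, 3 of the 7 Cyp4a ones among them, lay in windows that matched best 1 row off. It was left out. The 8 arrays of the D3T study went against their sex label. Their 4 male-biased genes summed to 6160 to 6920 intensity units, while on the same array type, scaled separately, the phenobarbital and PCN study had 5520 to 9180 in males and 271 to 1530 in females. The arrays of rats on D3T were also dimmer as deposited, with mean intensities of 93.3 to 117 against 276 to 417 for control diet. Those of rats on Wy-14643 were brighter than vehicle at 1 day (449 to 563 against 364 to 429). The same held at 3 days (533 to 614 against 317 to 449), with overlap at 7 days (410 to 580 against 348 to 486). In liver homogenate, fewer cells of a type and less RNA per cell cannot be told apart.

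The genes lie in 1 cluster on chromosome 5 of the GRCr8 assembly, in the order Cyp4a8, Cyp4a2, Cyp4a3 and Cyp4a1, with other genes and pseudogenes between them. Among these is another protein-coding gene, Cyp4a2l1, between Cyp4a2 and Cyp4a3, which is not one of the 4 genes followed here. Whether the probe sets named for Cyp4a2 or Cyp4a3 also read Cyp4a2l1 was not tested. Promoters are shown because the Cyp4a2 and Cyp4a3 transcripts share probe sets and nearly all of this stretch while Cyp4a8 shares neither. The promoter of Cyp4a1 was missing from the set used here, so its motifs were not searched. Each is 300 bases on the minus strand from RefSeq (GRCr8), 250 before to 50 after the gene's start, with the motif AGGTCA in capitals. AGGTCA is the core that nuclear receptors such as PPARα bind, and AGGTCANAGGTCA is 2 of them spaced by 1 base. Both strands were searched for both motifs, and every match of the longer one also counts as matches of the shorter. The promoter of Cyp4a2 (chr5:134170859-134171158) and that of Cyp4a3 (chr5:134352187-134352486) are followed by that of Cyp4a8 (chr5:133970177-133970476).
Cyp4a2: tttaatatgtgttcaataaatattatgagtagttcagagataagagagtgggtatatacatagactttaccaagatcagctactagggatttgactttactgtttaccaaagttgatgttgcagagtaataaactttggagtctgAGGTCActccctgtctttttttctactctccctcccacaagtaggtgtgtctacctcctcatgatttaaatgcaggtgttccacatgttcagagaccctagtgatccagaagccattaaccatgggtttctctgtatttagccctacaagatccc
Cyp4a3: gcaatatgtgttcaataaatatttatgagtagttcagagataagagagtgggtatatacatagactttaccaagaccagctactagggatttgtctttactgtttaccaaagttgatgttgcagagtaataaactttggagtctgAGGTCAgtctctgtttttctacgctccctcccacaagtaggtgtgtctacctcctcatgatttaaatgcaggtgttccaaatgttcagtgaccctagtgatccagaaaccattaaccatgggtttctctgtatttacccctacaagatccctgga
Cyp4a8: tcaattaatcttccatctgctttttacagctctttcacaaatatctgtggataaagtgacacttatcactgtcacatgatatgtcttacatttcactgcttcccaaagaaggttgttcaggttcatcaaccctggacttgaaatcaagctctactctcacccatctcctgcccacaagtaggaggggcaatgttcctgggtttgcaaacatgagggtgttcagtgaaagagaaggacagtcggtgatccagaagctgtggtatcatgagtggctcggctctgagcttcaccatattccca
Cyp4a2 and Cyp4a3 each hold 1 AGGTCA, on the strand of the gene and 105 bases before the start, and the window of Cyp4a8 holds none. Over 295 aligned bases Cyp4a2 and Cyp4a3 are identical at 284, or 96.3%, against 60.4% for Cyp4a2 with Cyp4a8 and 59.7% for Cyp4a3 with Cyp4a8. The window of Cyp4a2l1, not printed, is identical to that of Cyp4a2 at all 264 aligned bases. It holds AGGTCA 69 bases before its own start. AGGTCA is present in 5415 of all 33469 promoters of this length (16.2%), and AGGTCANAGGTCA in 18 of them (0.0538%) and in none of the 3 printed. The matches describe the letters of these windows and not binding.

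Wy-14643 raised Cyp4a1 and Cyp4a3 at each time and left both Cyp4a8 probe sets short of the threshold. Cyp4a1 is the fatty acid hydroxylase of the cluster best known from liver. At 1 day its log2 levels were 10.80, 10.77 and 10.40 on vehicle and 13.32, 13.35 and 13.33 on Wy-14643. At 3 days they were 10.59, 10.43 and 10.75 against 13.21, 13.47 and 13.43, and at 7 days 10.74, 10.56 and 10.96 against 13.58, 13.38 and 13.57. The 9 treated rats lay above the 9 vehicle rats without overlap, and the treated rats of 1 day differed among themselves by little. The change was 2.67 ± 0.13 at 1 day (6.38-fold, adjusted p = 9.1e-08), 2.78 ± 0.13 at 3 days (9.3e-08) and 2.76 ± 0.13 at 7 days (4.5e-08). Its mean place within an array went from the percentile 93.3 on vehicle to 99.6 at 1 day.

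Cyp4a3, a close relative of Cyp4a2, rose at each time as well. It read 11.66, 11.88 and 11.60 on vehicle and 13.62, 13.63 and 13.55 on Wy-14643 at 1 day. The values were 11.50, 11.90 and 11.70 against 13.24, 13.51 and 13.61 at 3 days, and 11.73, 11.72 and 11.73 against 13.48, 13.59 and 13.54 at 7 days. Again no treated rat reached down to a vehicle rat. The changes were 1.89 ± 0.11 (3.70-fold, adjusted p = 3.9e-07), 1.75 ± 0.11 (7.2e-07) and 1.81 ± 0.11 (4.5e-07). Between 1 and 7 days the change of Cyp4a1 differed by 0.08 ± 0.18 (95% interval -0.30 to 0.47) and that of Cyp4a3 by -0.08 ± 0.15 (-0.40 to 0.24).

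Cyp4a8 was dim on this array. Its brighter probe set lay between 5.93 and 7.89 over all 18 rats, with changes of 0.26, -0.20 and -0.19 at the 3 times. The dimmer one was at the floor of 4.00 in all 9 treated rats. On vehicle it read 4.00, 4.00 and 6.36 at 1 day, 4.00, 4.00 and 4.97 at 3 days and 4.00, 5.93 and 4.19 at 7 days, so 5 of 9 vehicle rats were at the floor too. In counts, 2 of 4 Cyp4a probe sets passed as higher at each time, where 11.4%, 10.8% and 13.1% of all probe sets passed in either direction at 1, 3 and 7 days. None of the 4 passed for the difference between 7 days and 1 day, where 1.89% of all did.

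**Figure D1:**
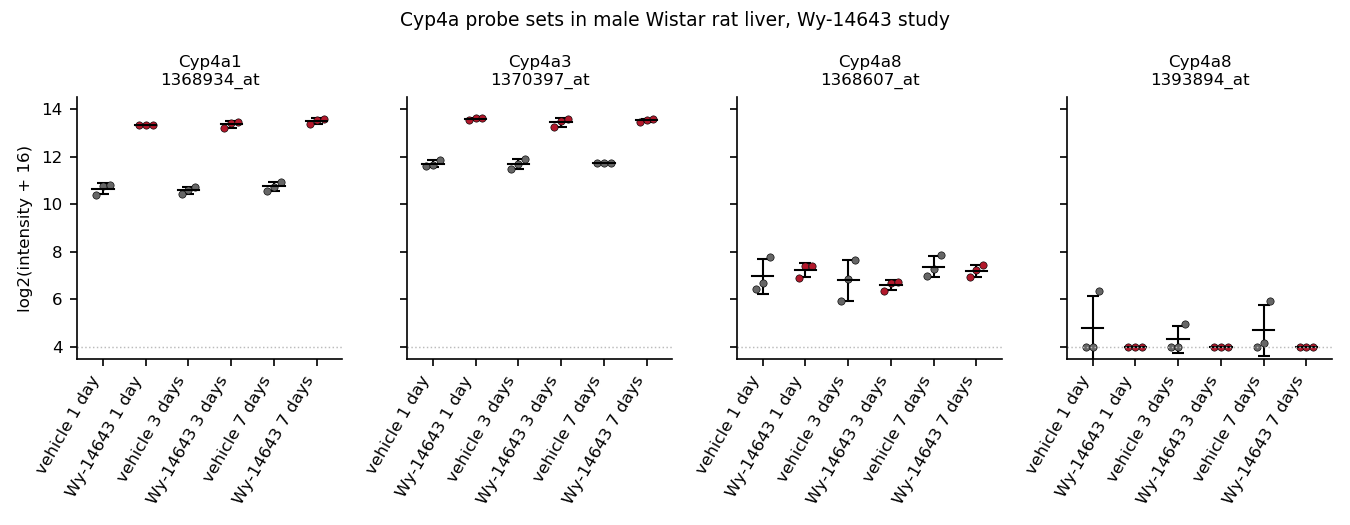
Log2 level of each Cyp4a probe set in every rat of the Wy-14643 study, by day and treatment, with 1 point a rat and the mean ± SD of each group. Cyp4a1 reached 13.21 to 13.58 on Wy-14643 against 10.40 to 10.96 on vehicle, while the dimmer Cyp4a8 probe set was at 4.00 in all treated rats.

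In male rats PFOA raised Cyp4a1 and Cyp4a3, and PFOS gave smaller differences that did not pass. Cyp4a1 read 11.55, 11.83 and 11.82 on vehicle and 13.37, 13.32 and 13.42 on PFOA. On PFOS it read 11.84, 12.90 and 12.81. The PFOA rats stood well above vehicle, and the lowest PFOS rat, R95479, lay just above the highest vehicle rat. The change on PFOA was 1.64 ± 0.27 (3.12-fold, adjusted p = 0.023). Leaving out any 1 of the 6 vehicle and PFOA rats (R95434, R95435, R95436, R95470, R95471 or R95472) kept it between 1.54 and 1.68 but ended the call, at an adjusted p of 0.054 to 0.075.

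Cyp4a3 read 11.35, 11.29 and 11.25 on vehicle, 13.18, 13.11 and 13.14 on PFOA and 11.65, 12.17 and 12.22 on PFOS. No group overlapped another. PFOA changed it by 1.85 ± 0.15 (3.60-fold, adjusted p = 0.0027). The probe set for Cyp4a3 and Cyp4a2 together was already bright on vehicle at 12.26, 12.71 and 12.71 and read 12.91, 12.90 and 12.92 on PFOA. These groups did not overlap either, yet the difference of 0.35 ± 0.14 did not pass (adjusted p = 0.22). The brighter Cyp4a8 probe set read 8.19, 6.86 and 6.00 on vehicle and 7.01, 6.16 and 6.32 on PFOA. The dimmer one read 5.91, 4.64 and 4.00 on vehicle against 4.00 in all 3 PFOA rats, and both overlapped. In all, 2 of 5 Cyp4a probe sets passed as higher on PFOA, where 6.08% of all probe sets passed.

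PFOS at its dose of 10 mg/kg a day gave 0.79 ± 0.27 for Cyp4a1 (adjusted p = 0.32) and 0.72 ± 0.15 for Cyp4a3 (0.11). The Cyp4a3 and Cyp4a2 probe set gave 0.17 ± 0.14, with values of 12.54, 12.77 and 12.87, and Cyp4a8 gave 0.34 ± 0.69 and 0.46 ± 0.73. None of 5 passed, where 0.461% of all probe sets did. Without rat R95479 both calls were made, at 1.12 for Cyp4a1 (adjusted p = 0.024) and 0.89 for Cyp4a3 (0.0027). Median scaling of all arrays of the study, with the 3 PFOS rats kept, likewise gave 1.19 (0.041) and 1.16 (0.013). The doses of PFOA and PFOS differed, so no test between them was made.

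**Figure D2:**
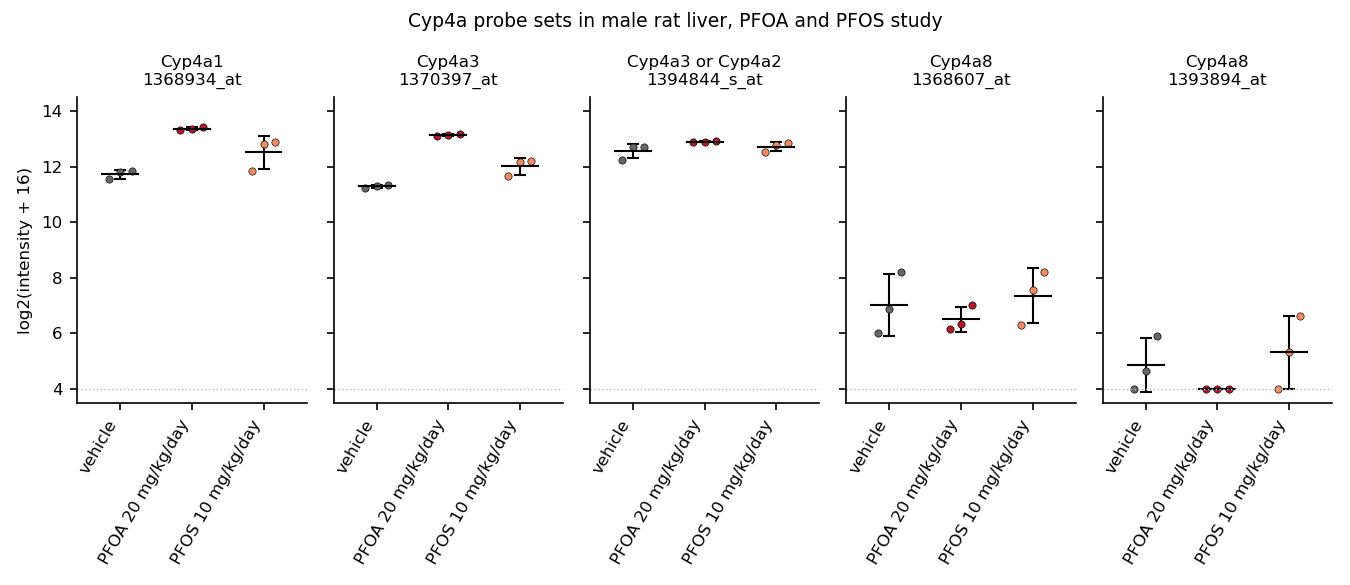
Log2 level of the Cyp4a probe sets in each male rat given vehicle, PFOA or PFOS, with 1 point a rat and the mean ± SD of each group. Cyp4a3 lay at 13.11 to 13.18 on PFOA, 11.65 to 12.22 on PFOS and 11.25 to 11.35 on vehicle.

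After 3 weeks of PFOS, at 5 mg/kg daily in females, none of 7 Cyp4a probe sets passed. The 3 that read Cyp4a1 were higher in both treated rats than in both vehicle rats. They read 1 gene in the same rats, and the share of all probe sets that separated the groups in this way was not counted. M57718mRNA_s_at read 9.31 and 9.43 on vehicle and 9.80 and 10.06 on PFOS. X07259cds_s_at read 9.48 and 9.06 against 10.30 and 10.19, and rc_AA924267_s_at read 7.28 and 7.16 against 8.20 and 8.07. The differences were 0.56 ± 0.13, 0.98 ± 0.20 and 0.91 ± 0.08, with adjusted p of 0.9, 0.85 and 0.53 in limma's fit. Cyp4a3 and Cyp4a2 in the shared probe set read 10.65 and 10.57 against 10.37 and 10.82, with overlap, and the Cyp4a8 pair and rc_AA924591_at overlapped between the groups. With 2 rats a group 0% of all 8740 probe sets passed, although 421 had an unadjusted p under 0.05. The 4 male-biased genes summed to 376 to 435 intensity units on PFOS against 172 to 366. The 4 bile duct markers summed to 95.3 to 108 against 78.1 to 82.6. The part of these lists was not tested.

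Phenobarbital lowered Cyp4a1 after 5 days in both sexes, and PCN lowered it in females. M57718mRNA_s_at, a Cyp4a1 probe set, read 9.62, 10.43, 10.09, 10.30 and 10.76 in vehicle males at 5 days. On phenobarbital the males read 8.84, 9.33, 9.47, 7.49 and 8.58, all below the vehicle rats. The change was -1.50 ± 0.29 (2.83-fold lower, adjusted p = 0.00025). X07259cds_s_at changed by -1.41 ± 0.32 (0.0019) and rc_AA924267_s_at by -1.74 ± 0.47 (0.015), and in both the groups overlapped. The shared Cyp4a3 and Cyp4a2 probe set read 11.62, 11.56, 11.97, 12.03 and 12.21 on vehicle and 11.28, 11.54, 11.54, 10.07 and 11.35 on phenobarbital, which did not overlap, for -0.72 ± 0.19 (adjusted p = 0.011). Thus 4 of 7 Cyp4a probe sets passed as lower and none as higher in males at 5 days, where 4.89% of all probe sets passed. Here and in the counts below, the Cyp4a1 probe sets read a single gene in the same rats and are not separate results. Rat 4014 was the lowest in each of the 4, and without it the shared probe set changed by -0.45 (0.16) and rc_AA924267_s_at by -1.16 (0.16). The call of the shared probe set also ended by median scaling (-0.64, 0.067) and with rat 1003 kept (-0.72, 0.65). Without vehicle rat 1012 rc_AA924267_s_at changed by -1.56 (0.061), and a fit of only the groups compared gave an adjusted p of 0.13 to 0.33 for the 4.

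In females at 5 days M57718mRNA_s_at read 10.07, 10.40, 10.98, 11.20 and 10.23 on vehicle and 9.94, 9.14, 8.67, 8.16 and 9.70 on phenobarbital. The groups did not overlap, and the change was -1.45 ± 0.29 (2.74-fold lower, adjusted p = 0.00064). X07259cds_s_at changed by -1.66 ± 0.32 (0.00022) and rc_AA924267_s_at by -1.90 ± 0.47 (0.011). The shared probe set read 11.18, 11.34, 11.53, 11.83 and 11.26 on vehicle and 11.11, 10.74, 11.06, 10.85 and 11.06 on phenobarbital, and its -0.46 ± 0.19 did not pass (0.28) although no rat overlapped. In females 3 of 7 passed as lower, where 2.48% of all did. The call of rc_AA924267_s_at ended without vehicle rat 1514 (-1.67, 0.067) or phenobarbital rat 4514 (-1.52, 0.10), and a fit of only the groups compared gave 0.17 to 0.19 for the 3. A pseudocount of 1 ended it too (-2.13, 0.16), and with rat 1003 kept that of M57718mRNA_s_at ended (-1.45, 0.071). The test of the phenobarbital change in females minus that in males passed for no Cyp4a probe set, at 0.05 ± 0.42 for M57718mRNA_s_at (95% interval -0.78 to 0.88), where 0.103% of all probe sets passed.

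The largest falls of Cyp4a1 among the treated groups of this study were those of PCN females at 5 days. With the vehicle values above, M57718mRNA_s_at read 8.35, 9.19, 8.65, 8.41 and 7.94 on PCN, below every vehicle rat. The change was -2.07 ± 0.29 (4.19-fold lower, adjusted p = 9.8e-08), with -2.14 ± 0.32 (2.7e-07) for X07259cds_s_at and -2.82 ± 0.47 (5.2e-06) for rc_AA924267_s_at. Cyp4a3 and Cyp4a2 together read 10.84, 10.73, 10.42, 10.53 and 10.20, also below every vehicle rat, for -0.88 ± 0.19 (0.00046), a call that ended with rat 1003 kept (0.51). In these females 4 of 7 passed as lower, where 8.42% of all probe sets passed. The probe set for Cyp4a3 alone, rc_AA924591_at, read 6.23 on average against 6.80 on vehicle, with overlap (-0.57 ± 0.26, adjusted p = 0.21). Beside these values, the 4 male-biased genes summed to 947 to 1530 intensity units on PCN against 328 to 621, and the 4 bile duct markers to 119 to 133 against 75.3 to 111, and their part in the result was not tested.

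In males at 5 days on PCN, M57718mRNA_s_at read 10.24, 10.00, 10.08, 9.15 and 9.05 and overlapped vehicle, with -0.54 ± 0.29 (adjusted p = 0.36). Cyp4a3 and Cyp4a2 changed by -0.08 ± 0.19, and none of 7 passed, where 4.74% of all did. The test of the difference between the sexes itself did not pass for any Cyp4a probe set. It gave -1.53 ± 0.42 (adjusted p = 0.062) for M57718mRNA_s_at, -1.62 ± 0.45 (0.066) for X07259cds_s_at and -2.25 ± 0.67 (0.1) for rc_AA924267_s_at, where 0.606% of all probe sets passed. Up to 3 of 7 passed when single rats were left out.

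**Figure D3:**
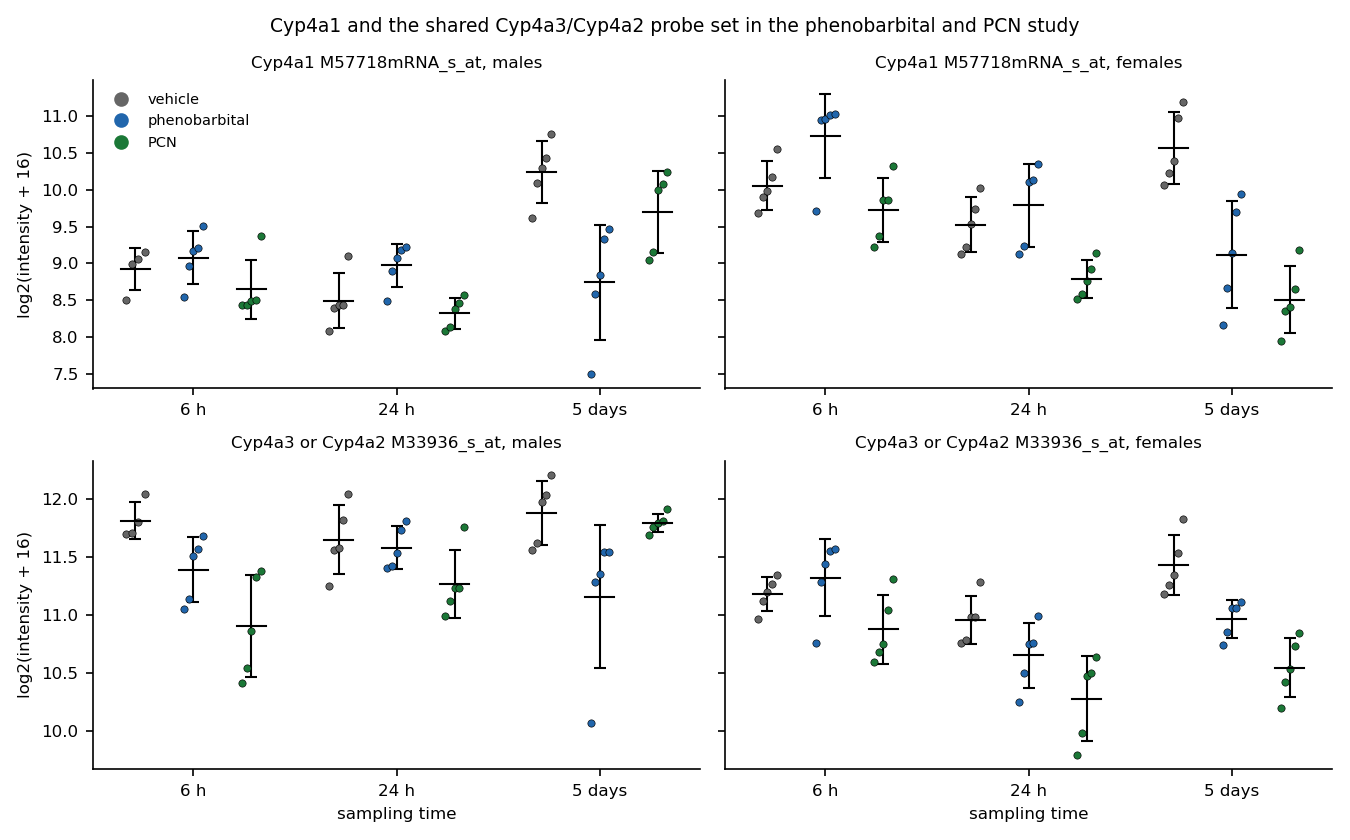
Log2 level of Cyp4a1 (M57718mRNA_s_at) and of the shared Cyp4a3 and Cyp4a2 probe set in each rat given vehicle, phenobarbital or PCN, by sex and time, with 1 point a rat and the mean ± SD of each group. Cyp4a1 on vehicle was higher at 5 days than at 24 h, and PCN females at 5 days lay at 7.94 to 9.19 against 10.07 to 11.20 on vehicle.

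Earlier times gave few changes, and those were in the shared probe set. Males 6 h after PCN read 10.86, 11.38, 11.33, 10.54 and 10.41 against 11.80, 11.71, 11.70 and 12.04 on vehicle, without overlap. The change was -0.91 ± 0.20 (1.88-fold lower, adjusted p = 0.0045), and 1 of 7 passed as lower, where 1.9% of all did. A fit of only the groups compared gave 0.20. Females 24 h after PCN read 9.98, 9.79, 10.50, 10.64 and 10.47 against 10.98, 10.76, 10.78, 10.98 and 11.28, again without overlap, for -0.68 ± 0.19 (0.023), and 1 of 7 passed, where 3.7% did. That call ended without vehicle rat 1510 (-0.60, 0.090) or PCN rats 5506 (-0.61, 0.090) or 5507 (-0.56, 0.11), by median scaling (-0.59, 0.12), with rat 1003 kept (0.72) and in a fit of only the groups compared (0.10). In these females the 4 male-biased genes summed to 635 to 1370 intensity units on PCN against 319 to 523. Of 7 hepatocyte markers 2 were lower and 1 higher, with overlap of their sums. The part of either list was not tested.

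Cyp4a3 alone, in rc_AA924591_at, did not pass in any of the 12 treated groups of this study, with changes from -0.57 to 0.38 and overlap with vehicle in each. After 5 days of phenobarbital it gave -0.12 ± 0.26 in males and -0.26 ± 0.26 in females (adjusted p = 0.97 for both), beside -0.72 and -0.46 for the shared probe set.

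In the other early groups none of 7 passed as higher or lower. These were PCN in males at 24 h (0.572% of all probe sets passed) and in females at 6 h (2.23%), and phenobarbital in males at 6 h (0.732%) and 24 h (2.3%) and in females at 6 h (2.61%) and 24 h (4.07%). The highest mean of Cyp4a1 in this study was that of females 6 h after phenobarbital. There M57718mRNA_s_at read 11.02, 10.95, 11.03, 10.96 and 9.72 against 10.56, 10.17, 9.90, 9.98 and 9.68 on vehicle, and all but the low rat 4505 exceeded every vehicle rat. The change was 0.68 ± 0.29 (adjusted p = 0.31), with 0.91 ± 0.32 (0.12) for X07259cds_s_at and 1.23 ± 0.47 (0.2) for rc_AA924267_s_at.

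Vehicle rats were themselves not at 1 level. Their comparison of 5 days with 24 h was added after the values were seen. In males M57718mRNA_s_at read 8.44, 9.10, 8.08, 8.40 and 8.44 at 24 h after 1 dose of vehicle, and every male at 5 days lay higher. The difference was 1.75 ± 0.29 (3.37-fold, adjusted p = 6.9e-05), with 2.11 ± 0.32 (4.7e-06) for X07259cds_s_at and 2.64 ± 0.47 (0.00019) for rc_AA924267_s_at. Shared Cyp4a3 and Cyp4a2 signal gave 0.23 ± 0.19 and did not pass, so 3 of 7 were higher at 5 days in males, where 1.6% of all probe sets passed. A fit of only the groups compared gave 0.072 for X07259cds_s_at. In females the 24 h values were 9.54, 9.22, 9.13, 10.02 and 9.74, all below those at 5 days, for 1.05 ± 0.29 (0.075). Of 7 only X07259cds_s_at passed in females (1.33 ± 0.32, adjusted p = 0.021), where 0.629% of all did, and that call ended without any of the vehicle rats 1507, 1508, 1513 or 1514 (1.14 to 1.30, 0.059 to 0.15) and in a fit of only the groups compared (0.35). Beside the male values, the 4 male-biased genes summed to 5520 to 7320 intensity units at 5 days against 7520 to 8440 at 24 h, and their part was not tested.

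The phenobarbital change was then set against that at 24 h, with the vehicle rats of each time in the comparison. Like that of the vehicle times, this comparison was added after the values were seen, so its p-values do not weigh like those of planned tests. Phenobarbital males at 5 days averaged 8.74 for M57718mRNA_s_at, within the 24 h vehicle range of 8.08 to 9.10. Phenobarbital females at 5 days averaged 9.12, just under their 24 h vehicle range of 9.13 to 10.02. The change at 5 days minus that at 24 h was -1.99 ± 0.42 in males (adjusted p = 0.0087) and -1.71 ± 0.42 in females (0.011). For X07259cds_s_at it was -2.23 ± 0.45 (0.0079) and -2.26 ± 0.45 (0.0011), and for rc_AA924267_s_at -2.95 ± 0.67 (0.02) and -2.36 ± 0.67 (0.046). In each sex 3 of 7 passed as lower, where 0.217% of all probe sets passed in males and 1.64% in females. Without rat 4014 none of the 3 passed in males (-1.67 with 0.061, -2.01 with 0.051 and -2.37 with 0.15), and rc_AA924267_s_at also failed without rats 1008, 1012 or 4008. In females M57718mRNA_s_at failed without rat 4514 (-1.47, 0.053), and rc_AA924267_s_at failed without any of rats 1506, 1507, 1508, 1510, 1513, 1514, 4506, 4507, 4509, 4512, 4513 or 4514 (-2.36 to -1.98). A fit of only the groups compared passed none in either sex, at 0.24 to 0.29 in males and 0.099 to 0.17 in females. A pseudocount of 1 ended rc_AA924267_s_at in males (-4.24, 0.068) and females (-2.61, 0.35). With rat 1003 kept M57718mRNA_s_at failed in males (0.30) and females (0.28), and rc_AA924267_s_at in females (0.068). For PCN the same difference passed for none of 7, where 0.206% of all probe sets passed in males and 0.572% in females.

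Vehicle females had more Cyp4a1 signal and less shared Cyp4a3 and Cyp4a2 signal than vehicle males after 1 dose. At 6 h M57718mRNA_s_at read 8.99, 9.06, 8.50 and 9.15 in males, all under the female values above. The female minus male difference was 1.13 ± 0.31 (adjusted p = 0.013), and at 24 h it was 1.04 ± 0.29 (0.02), also without overlap. X07259cds_s_at gave 1.36 ± 0.33 (0.0042) and 1.14 ± 0.32 (0.017), and rc_AA924267_s_at gave 1.68 ± 0.50 (0.026) and 1.83 ± 0.47 (0.0088). The shared probe set gave -0.64 ± 0.20 (0.038) at 6 h, where females read 10.96 to 11.34 and males 11.70 to 12.04, and -0.69 ± 0.19 (0.015) at 24 h, where the male range of 11.25 to 12.04 met the female range of 10.76 to 11.28. So 3 of 7 were higher and 1 lower in females at both times, where 6.51% and 5.15% of all probe sets passed. At 5 days none of 7 passed, with 0.34 ± 0.29 for M57718mRNA_s_at, where 5.33% of all did.

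Several of these sex calls turned on single rats or on the processing. At 6 h the shared probe set failed without any of 1001, 1004, 1005, 1502, 1503 or 1504 (-0.67 to -0.56, adjusted p 0.056 to 0.15), M57718mRNA_s_at without 1004 (0.99, 0.076) or 1501 (1.01, 0.050), and rc_AA924267_s_at without 1001, 1004, 1501 or 1504 (1.46 to 1.64, 0.053 to 0.11). At 24 h M57718mRNA_s_at failed without 1008, 1509 or 1510 (0.92 to 0.99), X07259cds_s_at without 1006, 1008, 1506 or 1509 (1.02 to 1.06), and the shared probe set without 1009 (-0.59, 0.069). A pseudocount of 1 ended rc_AA924267_s_at at 6 h (1.92, 0.18) and 24 h (2.36, 0.055), and median scaling ended the shared probe set at both (-0.63, 0.084 and -0.66, 0.054). At 24 h a fit of only the groups compared ended X07259cds_s_at (0.064), and keeping rat 1003 ended M57718mRNA_s_at (0.23) and the shared probe set (0.78). Hepatocyte markers summed lower in females, to 40300 to 43500 intensity units against 43600 to 45500 at 6 h and 41600 to 42600 against 43200 to 45600 at 24 h. The 3 blood markers at 24 h summed to 2260 to 3380 in females against 3800 to 6450, and the part of either list was not tested. The sex labels of this study fitted 5 of 6 sex-biased genes measured, since 3 of 4 male-biased genes were lower and 2 of 2 female-biased ones higher in vehicle females at all 3 times.

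Cyp4a8 passed in 1 comparison, phenobarbital minus PCN in males at 5 days. M37828_at read 7.62, 7.35, 6.89, 7.24 and 6.89 on phenobarbital, 5.99, 5.97, 4.91, 6.24 and 5.73 on PCN and 6.73, 5.88, 6.15, 6.32 and 6.78 on the vehicle they share. The phenobarbital rats were above both other groups, and the PCN rats overlapped vehicle. Phenobarbital minus PCN was 1.43 ± 0.30 (2.70-fold, adjusted p = 0.0012), while against vehicle phenobarbital gave 0.83 ± 0.30 (0.091) and PCN -0.60 ± 0.30 (0.28). The other Cyp4a8 probe set, rc_AA893011_at, gave 0.25 ± 0.21 (0.8) for phenobarbital minus PCN. Signal shared by Cyp4a3 and Cyp4a2 was lower on phenobarbital than on PCN, by -0.64 ± 0.19 (0.043), a call that ended without rat 4014 (-0.37, 0.41) or any of the PCN rats 5011 to 5015 (-0.67 to -0.61, 0.057 to 0.089), by median scaling (-0.61, 0.11) and with rat 1003 kept (0.92). Thus 1 of 7 was higher and 1 lower on phenobarbital in males, where 3.05% of all probe sets passed, and a fit of only the groups compared passed neither (0.078 for Cyp4a8, 0.51 for the shared probe set). In females none of 7 passed, with 0.62 ± 0.29 for M57718mRNA_s_at (95% interval 0.03 to 1.20, adjusted p = 0.26), where 6.9% of all did.

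In the rats labelled female on D3T diet 1 of 7 Cyp4a probe sets passed, as lower, where 12.5% of all probe sets passed. Cyp4a1 in M57718mRNA_s_at read 9.28, 9.74, 9.42 and 9.22 on control diet and 8.37, 8.12, 9.03 and 8.47 on D3T, without overlap, for -0.92 ± 0.22 (1.89-fold lower, adjusted p = 0.040). The other Cyp4a1 probe sets overlapped between the diets. X07259cds_s_at read 8.43, 8.90, 8.75 and 8.86 against 8.27, 8.28, 8.83 and 8.45 (-0.28 ± 0.16, adjusted p = 0.36), and rc_AA924267_s_at gave -0.27 ± 0.29 (0.64). Cyp4a3 and Cyp4a2 together read 11.34, 11.36, 11.38 and 11.39 against 11.21, 11.19, 11.63 and 11.52. The one call ended without any of control rats 1 to 4 or D3T rats 1, 2 or 4 (-0.97 to -0.79, adjusted p 0.065 to 0.10). Of 5 macrophage markers 2 were lower on D3T, Clec4f by -0.93 ± 0.15 and Aif1 by -1.02 ± 0.20, and the list summed to 886 to 1160 intensity units against 1250 to 1500 on control diet, where Csf1r was at the floor in every rat. Of 4 endothelial markers 1 was lower, with the list at 76.3 to 175 against 231 to 268, and of 3 blood markers 1 was lower, at 2360 to 2940 against 3270 to 4620. Of 7 hepatocyte markers 3 were lower, with 33600 to 35300 against 37000 to 38600. The part of these markers and of the dimmer D3T arrays in the result was not tested.

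**Figure D4:**
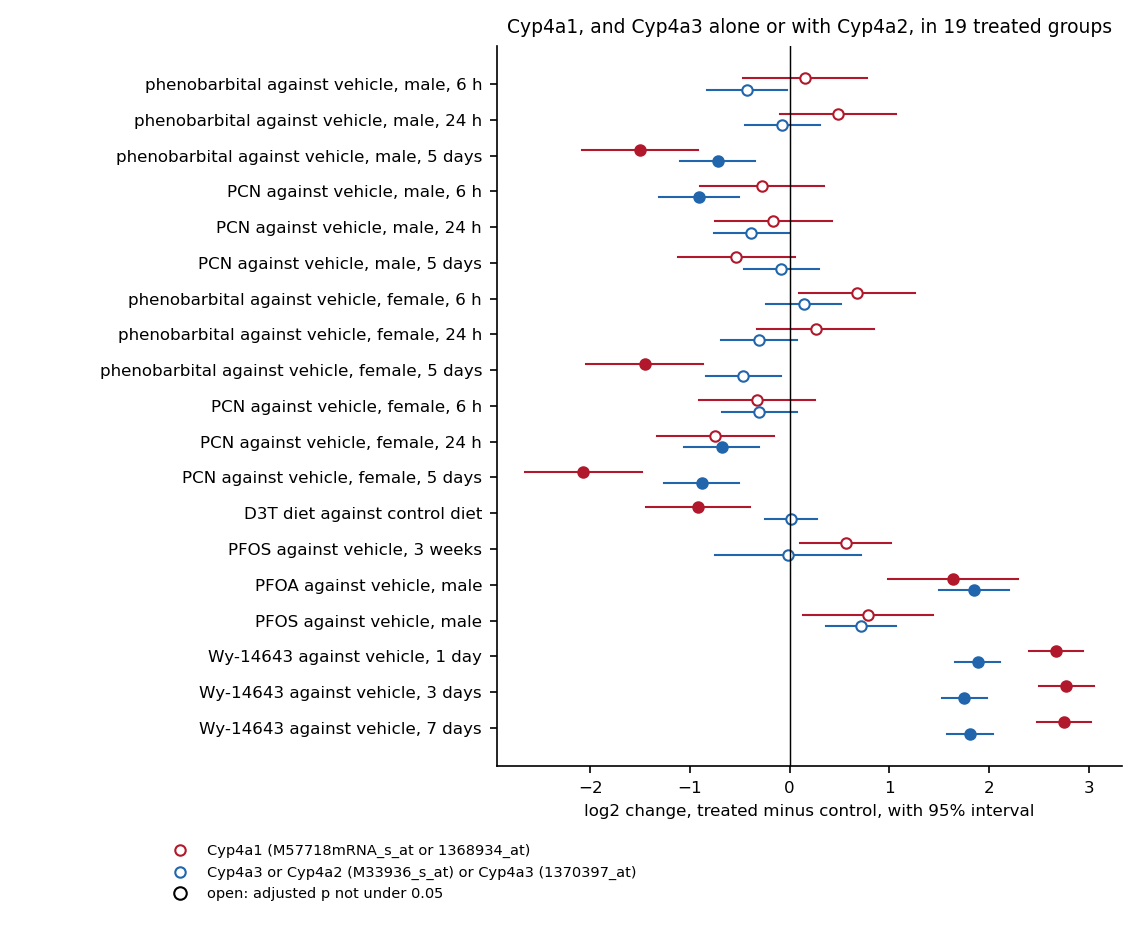
Log2 change, with its 95% interval, of Cyp4a1 (M57718mRNA_s_at or the single Cyp4a1 probe set) and of the probe set shared by Cyp4a3 and Cyp4a2 (or, for male PFOA, PFOS and Wy-14643 rats, the Cyp4a3 probe set) in the 19 treated groups against their own controls, filled where the adjusted p was under 0.05. Cyp4a1 and Cyp4a3 rose on Wy-14643 by 1.75 to 2.78, and Cyp4a1 in PCN females at 5 days lay at -2.07.

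Other genes of the pathway were counted from fixed lists, each gene from its brightest probe set. Among known PPARα targets, Wy-14643 raised 18, 23 and 24 of 27 at 1, 3 and 7 days and lowered none, with a median change of 1.74 at 7 days against 0 over all probe sets. Acot1, a thioesterase that frees fatty acids from coenzyme A, read 12.78 to 12.89 at 7 days against 4.01 to 4.71 on vehicle, next to the floor of 4.00, so the size of its rise depends on the pseudocount and is not given. Fabp3, a fatty acid carrier, rose by 5.39 and Vnn1, a pantetheinase, by 5.11. Of 14 genes on the peroxisomal oxidation list 9 rose and 1 fell at 7 days. Those that rose included Crat, a carnitine acyltransferase (11.38 to 11.56 against 4.00 to 7.68 on vehicle, with 1 vehicle rat at the floor). Pex11a (3.27 higher), a peroxisome division factor, and Ech1 (2.97), a dienoyl-CoA isomerase, were others. Of 11 genes that act directly after the hydroxylation or activate fatty acids, 6 rose and 1 fell, with Adh7, an alcohol dehydrogenase, 2.54 higher and Slc27a5, a bile acid and fatty acid ligase, -1.80. Of 7 other Cyp4 P450s 1 rose and 2 fell (Cyp4f5 0.84, Cyp4f6 -0.93 and Cyp4f1 -0.57). Beside these, 2 of 6 macrophage markers were lower at 7 days, Cd14 by -0.90 and Csf1r by -0.70, and the list summed to 2030 to 2520 intensity units against 3640 to 5280 on vehicle. Of 3 blood markers 2 were lower at 7 days, with 5700 to 8160 against 11200 to 15000, and 1 at 3 days, with 6070 to 8980 against 10900 to 13300. Of 9 stellate cell and fibroblast markers 1 was lower at 7 days, at 2640 to 2940 against 3350 to 4030, and of 4 bile duct markers 1 was higher, at 319 to 530 against 254 to 287. Hepatocyte markers summed to 75000 to 75500 against 81400 to 83600 at 1 day, 71300 to 79300 against 80900 to 82600 at 3 days and 71100 to 72800 against 78300 to 81000 at 7 days. Of these 7 genes 3, 2 and 2 were lower and 0, 1 and 1 higher. Male-biased genes were lower in sum at each time (20600 to 26400 against 27200 to 28800 at 7 days), and female-biased ones at 3 and 7 days (3400 to 4930 against 11300 to 11600 at 7 days). The part of these lists, and of the brighter Wy-14643 arrays at 1 and 3 days, in the result was not tested.

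PFOA raised 17 of 28 PPARα targets and lowered 1, with Acot4, another thioesterase, 4.50 higher. Acot1 read 12.84 to 12.99 against 4.17 to 5.20 on vehicle and Acot3 9.55 to 10.53 against 4.00 to 5.43, with 2 of 3 vehicle rats of Acot3 at the floor. Of 14 peroxisomal genes 9 rose and 1 fell, with Pex11a at 3.76, Crat at 3.74 and Ech1 at 3.12. Of 7 other Cyp4 genes only Cyp4f1 passed, at -0.85. On PFOS in males 4 of 28 PPARα targets rose, among them Vnn1 (1.63), Acot2 (1.54), another acyl-CoA thioesterase, and Cpt2 (1.38), a carnitine palmitoyltransferase, and 1 of 14 peroxisomal genes, Pex11a (0.93). Beside the PFOA values, the macrophage marker Cd14 was -1.65 and its list summed to 4020 to 5870 against 7430 to 10600 on vehicle. The endothelial markers Kdr (-1.83) and Tek (-1.10) were also lower, with their list at 2950 to 3410 against 4580 to 5890. Bile duct markers summed higher, at 775 to 881 against 306 to 435, with Epcam 1.28 higher. Lymphocyte markers summed to 252 to 383 against 474 to 495 with none passing, and hepatocyte markers to 50300 to 55100 against 62500 to 63400, with Apoa1 (-1.26) and Cps1 (-0.22) lower. Male-biased genes summed to 22800 to 24400 against 24500 to 26200 with none passing. On PFOS the hepatocyte list summed to 58600 to 61300, the endothelial list to 3410 to 4470, the bile duct list to 462 to 588 and the blood list to 6760 to 8060 against 5140 to 5520, each apart from vehicle with none of its genes passing. Their part in the Cyp4a values was not tested. After 3 weeks of PFOS in females none of the 11 peroxisomal or 21 PPARα target genes passed, with median differences of 0.81 and 0.35.

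Where phenobarbital and PCN lowered Cyp4a1 at 5 days, some of the other targets passed, more of them as lower than as higher. Over all probe sets, 4.89% passed in either direction in phenobarbital males, 2.48% in phenobarbital females, 8.42% in PCN females and 4.74% in PCN males. Phenobarbital raised 1 and lowered 3 of 21 PPARα targets in males (Me1, malic enzyme, 1.36; Cpt1a, the carnitine palmitoyltransferase of the outer membrane, -1.02; Decr1, a dienoyl-CoA reductase, -0.57) and none of 11 peroxisomal genes. In females it raised 1 and lowered 7 of 21, with Acot2 at -1.32 and Hadhb, a subunit of the mitochondrial trifunctional protein, at -0.83, and 1 of 11 peroxisomal genes passed, Ech1 at -1.73. PCN in females raised 1 and lowered 3 of 21, with Cd36, a fatty acid transporter, at -2.33 and Acot2 at -1.36. Of 11 peroxisomal genes 1 rose (Acaa1b, a thiolase, 1.06) and 2 fell (Crot, a carnitine octanoyltransferase, -1.98, and Ehhadh, the bifunctional enzyme, -1.01). In PCN males 1 of 21 and 2 of 11 rose and none fell. The receptor gene itself, Ppara, changed by 0.09 and -0.03 on phenobarbital in males and females without passing and by 0.45 ± 0.14 in PCN females (adjusted p = 0.023). Cyp2b2, the phenobarbital-inducible P450, rose by 3.29 in males and 3.76 in females on phenobarbital. In PCN females Cyp2b2 rose by 3.16 and Cyp3a18 by 3.66.

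In vehicle males at 5 days against 24 h, where Cyp4a1 was higher, 6 of 21 PPARα targets were higher and 1 lower, with Cpt2 at 1.31 and Cpt1a at 1.30, and 5 of 11 peroxisomal genes were higher, with Ech1 at 3.24. After 6 h of phenobarbital in females 4 of 21 PPARα targets rose, among them Pdk4, a kinase that restrains pyruvate dehydrogenase (5.65 to 10.41 against 4.00 to 5.98, with 3 of 5 vehicle rats at the floor), and Acot1 (1.45 higher), and 2 of 11 peroxisomal genes, Acaa1b by 1.92 and Pex11a by 1.71. D3T raised 2 and lowered 2 of 21 PPARα targets and raised 2 and lowered 3 of 11 peroxisomal genes (Acaa1b 1.66, Ech1 -1.31 and Ehhadh -0.67), while the NRF2 target Nqo1, a quinone reductase, rose by 2.72.

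**Figure D5:**
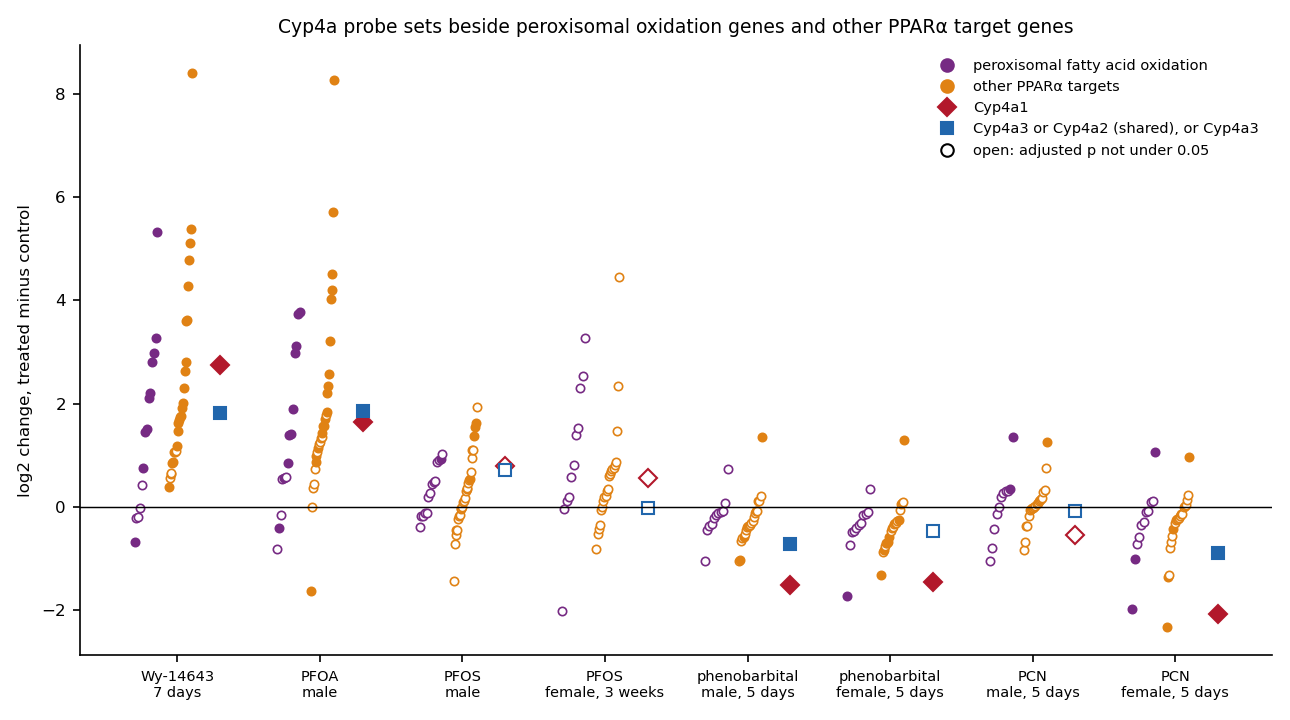
Log2 changes of Cyp4a1 and Cyp4a3 or Cyp4a2 beside those of each gene of the PPARα target and peroxisomal lists in 8 comparisons, with 1 point a gene and filled points for an adjusted p under 0.05. On Wy-14643 at 7 days 24 of 27 PPARα targets were filled and above 0, and on PFOA 17 of 28.

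Likeness of pattern was measured by Pearson's r, as a description. Over the 12 changes of the phenobarbital and PCN study, which share vehicles, the 3 Cyp4a1 probe sets correlated at 0.99 with one another and at 0.65 to 0.7 with the shared probe set, and the 2 Cyp4a8 probe sets at 0.62. The genes most like the shared probe set among 1642 were Gpd2 (0.829), Etfdh (0.822), Serpina1 (0.787), Rapgef4 (0.771) and Ehhadh (0.766). Those most like M57718mRNA_s_at, a probe set chosen for this after its values were seen, were Spp2 (0.903), Abcb4 (0.877), Gde1 (0.872), Agxt (0.851) and Cluh (0.85). Over the 18 arrays of the Wy-14643 study, which fall into 2 separate sets by treatment, the genes most like Cyp4a3 among 5902 were Acot1 (0.995), Hadha (0.994), Eci1 (0.992), Ech1 (0.992) and Pex11a (0.99), and those most like Cyp4a1 included Hadha (0.991), Acot1 (0.99) and Pex11a (0.989).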

How the data were processed

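Gene expression was measured on 3 types of 1-colour array in 129 rat livers. Each deposited value is the intensity of a probe set, linear and in 15.2% to 32.6% of cases per array at or below 0. How the authors summarised or scaled it was not given in the sources used here. Values below 0 became 0 before log2(value + 16). Studies whose array medians ranged over more than 0.5 were quantile normalised, which left 3-week PFOS as deposited. Group means were fitted per study (limma 3.58.1, R 4.3.3, lmFit and eBayes) with two-sided p-values and Benjamini-Hochberg adjustment per array. Of 33 comparisons, 6 were added after seeing the data. These set 5 days against 24 h, in each sex, for vehicle levels, the phenobarbital change and the PCN change. The members, lists and tests were chosen with earlier results of these data known. Named genes were all members, at most 3 of a pathway list in a comparison (the greatest changes that passed), marker genes that passed, and the 5 genes most like a member among those with a mean log2 of at least 7. Alternatives tried were pseudocounts of 1 and 64, median scaling, removal of the lowest 33.3% of probe sets, trend and robust moderation, a fit limited to the compared groups, omission of each array, a replicate block for D3T, and rat 1003 kept. Promoters were aligned with Biopython 1.88, and figures were drawn with Python 3.11.15 (pandas 2.3.3, matplotlib 3.10.9). The number of rats a group limits the precision.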

Additional observations from a re-analysis of the deposited data

Results flagged for a closer look

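In groups of 4 or 5 rats, 14 of 140 combinations of probe set and group held 1 rat whose gap to the nearest other was large for the group's range (Dixon's test), where 7 are expected by chance at 5%. Rat 4505, a female 6 h after phenobarbital, was low in all 3 Cyp4a1 probe sets. It read 9.72 in M57718mRNA_s_at (next rat 10.95), 7.85 in rc_AA924267_s_at (9.43) and 9.63 in X07259cds_s_at (10.86). Rat 4014, a male on phenobarbital for 5 days, read 10.07 in the shared probe set (next 11.28). D3T rat 3 read 5.17 in M37828_at (6.02), 6.25 in rc_AA893011_at (6.72) and 7.14 in rc_AA924267_s_at (6.37).

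Among rats on phenobarbital or vehicle, male 4008 read 7.20 in M37828_at at 24 h (6.50) and vehicle male 1007 read 6.36 in rc_AA924267_s_at at 24 h (5.38). On PCN, male 5003 read 9.37 in M57718mRNA_s_at at 6 h (8.50), male 5007 read 7.78 in X07259cds_s_at at 24 h (8.11), and male 5008 read 6.82 in rc_AA924591_at at 24 h (5.73). Female 5509 read 8.04 in M37828_at at 24 h (5.61) and female 5504 read 7.35 in rc_AA893011_at at 6 h (6.72). The cause of these values was not tested.

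The phenobarbital change at 5 days differed from that at 24 h for all 3 Cyp4a1 probe sets in both sexes, by -1.99, -2.95 and -2.23 in males and by -1.71, -2.36 and -2.26 in females (M57718mRNA_s_at, rc_AA924267_s_at and X07259cds_s_at). That comparison was added after the values were seen. On PCN at 24 h rc_AA924267_s_at was 0.45 higher than vehicle in males and differed by -0.78 in females, a gap of 1.23 between the sexes with every treated rat of a sex on the same side of its vehicle mean, and the difference was not tested.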

How the results depend on the processing

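Trend and robust moderation changed no count and no call. A pseudocount of 1 changed no count by over 1.5 times but ended 5 calls of rc_AA924267_s_at, median scaling ended 5, a fit of only the groups compared 20 and keeping rat 1003 10. The 2 calls of Wy-14643 at each time, and the 4 of PCN in females at 5 days, held under every setting tried but rat 1003 kept, which ended that of the shared probe set (-0.88, 0.51). Counts listed next are those that changed by over 1.5 times, or to or from 0, and smaller changes are left out. A pseudocount of 64 gave 1 Cyp4a probe set for phenobarbital in females at 6 h. Median scaling gave 0 for PCN in females at 24 h, 1 for phenobarbital minus PCN in males and 2 for PFOS in males. Without the lowest 33.3% of probe sets, 1 passed for the PCN sex difference and 1 for PCN at 5 days minus 24 h in females. A fit of only the groups compared gave 0 for phenobarbital at 5 days in males and in females, PCN in males at 6 h and females at 24 h, phenobarbital minus PCN in males, vehicle at 5 days minus 24 h in females, and phenobarbital at 5 days minus 24 h in both sexes. With rat 1003 kept, counts were 0 for PCN in males at 6 h and females at 24 h, 2 for vehicle females minus males at 24 h, 1 for phenobarbital minus PCN in males and 1 for phenobarbital at 5 days minus 24 h in females. The shared probe set M33936_s_at then turned to 1.14 (phenobarbital, males, 6 h), 0.65 (PCN, males, 6 h) and 0.93 (females minus males, 6 h), and Cyp4a1 (M57718mRNA_s_at) to 0.70 (PCN, males, 6 h).

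With each rat left out in turn, counts ranged from 2 to 4 for phenobarbital in males and 2 to 3 in females at 5 days, 0 to 1 for phenobarbital in females at 6 h, 0 to 1 for PCN in females at 24 h, 1 to 4 and 2 to 4 for the sexes at 6 h and 24 h, 0 to 3 for the PCN sex difference, 1 to 3 for phenobarbital minus PCN in males, 0 to 2 for the vehicle times in females, 0 to 3 and 1 to 3 for phenobarbital at 5 days minus 24 h in males and females, 0 to 1 for that of PCN in females, 0 to 1 for D3T, 1 at each omission for PFOA and 0 to 2 for PFOS in males. M33936_s_at, which did not pass, ranged over -0.17 to 0.0257 for phenobarbital in males at 24 h, -0.16 to 0.00034 for PCN in males at 5 days, -0.0651 to 0.0791 for D3T and -0.24 to 0.21 for PFOS at 3 weeks, where the lone rat left is assumed to vary like the other group. With D3T rats paired by number as a replicate block, 0 of 7 passed, Cyp4a1 (M57718mRNA_s_at) at -0.92 with an adjusted p of 0.15. Same-numbered rats deviated together at correlations of 0.266, -0.0784, -0.0949 and -0.205, so the numbers were not taken to pair the rats.

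Dim probe sets limit what Cyp4a8 shows, and no probe set reads Cyp4a2 alone. With 2 or 3 rats a group, a difference that did not pass is not shown to be absent.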
